A study of Mus musculus with 9 samples.

Results

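A set of 10 genes of the pathway that takes glucose into the cell and on to pyruvate was followed in mouse brown adipose tissue (BAT): Slc2a1, Slc2a4, Hk2, Pfkl, Pfkfb3, Pkm, Ldha, Ldhb, Pdk4 and Pdk2. They were chosen by gene symbol, with earlier results of these data known. All 10 were listed in each of the 3 deposited tables, out of 16937 genes listed in any of them. RNA was sequenced from 9 libraries that form 3 groups of 3. Mice of the groups WT Cold and GCN2 KO Cold spent 8 h at 4 °C in single cages without bedding, whereas WT RT mice stayed at 23 °C. All were singly housed for a 5-day acclimation, were on the C57Bl/6J background for 10 generations, were adults of 12 to 23 wk, had free access to food and were killed at Zeitgeber time 9. The knockout removes Gcn2, the gene of the amino acid-sensing kinase GCN2, from the whole body. According to the study, the sequenced groups held both male and female mice, and the labels give the sex of no library. Sex was therefore not modelled and is part of the spread within a group. Whether the groups held the same number of each sex cannot be told. Knockout mice at room temperature were not analysed here, so a knockout difference in the cold cannot be set against one without cold.

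Brown adipocytes burn fatty acids and glucose to make heat through UCP1. Glucose enters through the carriers SLC2A1 (GLUT1), which is found in most cells, and SLC2A4 (GLUT4), which insulin moves to the cell surface. Hexokinase traps it as glucose 6-phosphate, phosphofructokinase commits it to glycolysis, and pyruvate kinase yields pyruvate. Lactate dehydrogenase then interconverts pyruvate and lactate, while the pyruvate dehydrogenase kinases (PDK) switch off the enzyme complex through which pyruvate enters the mitochondrial citric acid cycle.

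Values are normalised read counts, that is, the reads of a gene divided by a size factor of its library set over all 9 libraries. They compare libraries for a gene, not genes with each other. Where levels or shares of genes are compared, counts are divided by the length of all annotated exons of a gene, merged over its transcripts. This can exceed the length of the transcript in use, so shares and rankings of genes depend on it. Fold changes came from limma within the table of a comparison on log2(normalised count + 1), which understates the change of low genes, and "past the test" means an adjusted p under 0.05. Libraries are named A, B and C by the order of their codes in the tables, which carry no replicate number. The labels call the samples biological replicates, and p-values measure the spread between these libraries.

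Libraries held between 27058799 and 30768064 reads on listed genes, and each member between 444 and 111424 reads in a library, so the spread between libraries rather than counting limits precision. The codes of the WT RT libraries start with other letters than those of the 6 cold libraries, so cold and whatever set these library series apart cannot be told apart. Brown adipocyte markers were present throughout, with Ucp1 between 95631 and 139625 normalised counts in WT RT, between 235450 and 259122 in WT Cold and between 296184 and 304595 in GCN2 KO Cold. Markers of other cell types moved with the groups. The summed level of 20 skeletal muscle markers ranged from 86884 to 97977 in WT RT, from 85911 to 137807 in WT Cold and from 11094 to 51045 in GCN2 KO Cold. Leukocyte markers (11 genes) summed to between 8852 and 13322, between 4397 and 6791, and between 3521 and 5596, and red blood cell markers (7 genes) to between 6901 and 9411, between 16915 and 65736, and between 34103 and 64631, in the same order. Preadipocyte and fibroblast markers (6 genes) summed to between 23176 and 26539, between 19317 and 21309, and between 14003 and 17432, endothelial markers (8 genes) to between 16299 and 19108, between 20659 and 23993, and between 17665 and 21417, and nerve markers (5 genes) to between 1591 and 2152, between 2098 and 2207, and between 1521 and 1566. No marker on these lists was at 0 in any library, and their part in the results was not tested. In bulk tissue, fewer cells of a type and less RNA per cell cannot be told apart. Library WT Cold C stood apart from the other WT Cold libraries, with a correlation of log2 values across genes of 0.971 with A and 0.974 with B against 0.988 between A and B. Eif2ak4, which encodes GCN2, did not separate the libraries labelled GCN2 KO Cold from the others by a lower level: it stood at 369, 398 and 372 normalised counts there, at 182, 239 and 246 in WT Cold, and at 295, 335 and 370 in WT RT. A gene total does not resolve the deleted part of a gene, so the total checks nothing about the labels. The labels of 1 GCN2 KO Cold sample conflict, since its genotype field reads GCN2 KO while its title names both GCN2 KO and WT. It was grouped by genotype, and which library it is cannot be told from the library codes, so every GCN2 KO Cold value rests on that field.

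Cold exposure was accompanied by opposite changes along the pathway. In WT Cold, Slc2a1, Hk2 and Ldhb rose relative to WT RT, whereas Pfkl and Pkm fell. Of the 10 members, 3 were higher and 2 lower past the test, against 13.6% and 14.1% of all genes of that table. A single member, Slc2a1, also exceeded an absolute log2 fold change of 1, as did 8.14% of all genes. The groups did not overlap for 5 of the 10 members under the authors' size factors, near the 45.5% of all genes. These were Slc2a1, Ldhb, Pfkl, Pkm and Ldha, whereas Hk2 overlapped and Ldha did not pass the test. The median log2 fold change of the members was -0.06 against 0.00 over all genes.

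**Figure D1:**
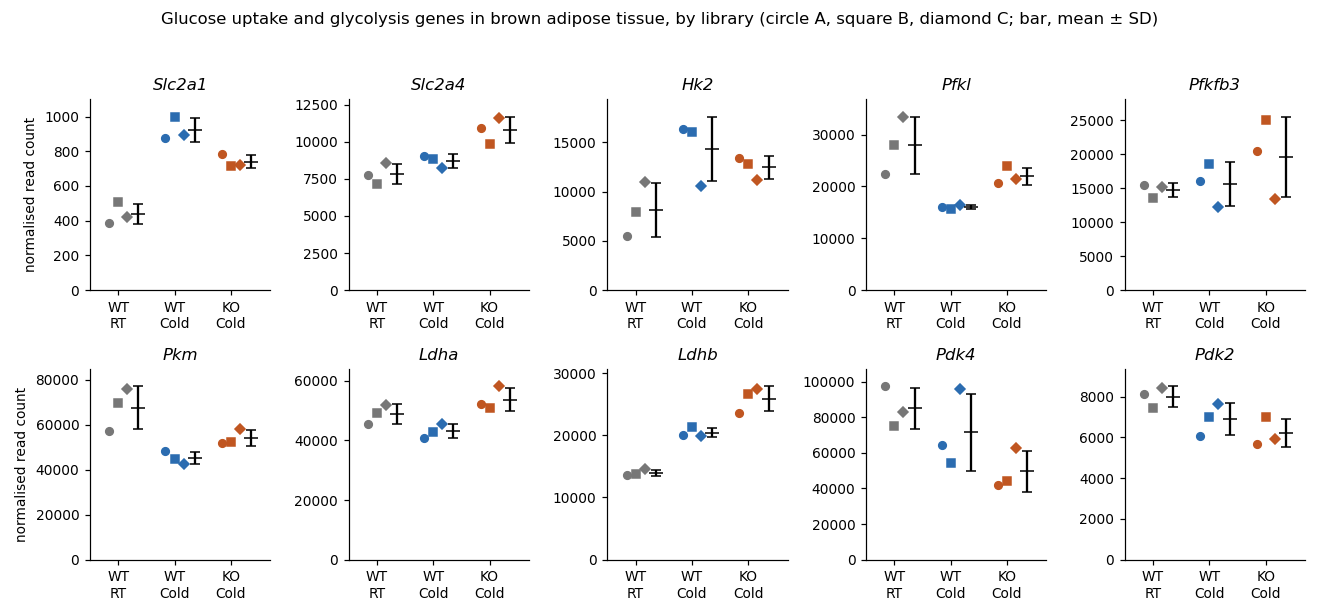
Normalised read count (linear axis from 0) of each of the 10 genes in the 3 libraries of WT RT (grey), WT Cold (blue) and GCN2 KO Cold (orange). Circles, squares and diamonds are libraries A, B and C, and bars are the mean ± SD. Slc2a1 and Ldhb lie above WT RT in all 6 cold libraries, Pfkl is lowest in WT Cold, and WT Cold C stands apart for Hk2 and Pdk4.

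Slc2a1 had the largest fold change of the members in WT Cold vs WT RT. The gene lies on chromosome 4 of GRCm38 from 119108711 to 119137983. It was counted at 388, 505 and 422 in WT RT, at 874, 999 and 892 in WT Cold and at 783, 714 and 721 in GCN2 KO Cold. All 6 cold libraries lay above all WT RT libraries, and the GCN2 KO Cold libraries lay between the other groups without overlap. The WT Cold mean was 2.10 times that of WT RT (log2 fold change 1.07 ± 0.12 SE, limma adjusted p = 0.000994) and was 1.69-fold higher in GCN2 KO Cold than in WT RT (0.76 ± 0.12, limma adjusted p = 0.00214). Between the cold groups it was -0.32 ± 0.09, which did not pass the test (limma adjusted p = 0.188). The study itself displayed genes of SLC-mediated transport from these libraries, so the direction of Slc2a1 here is not evidence independent of the study. Its promoter window, from 250 bases before to 50 after the start (RefSeq, GRCm38.p6, chr4:119108495-119108794, plus strand), is shown because the transcript had the largest change of the members in WT Cold vs WT RT. Capitals mark ACGTG on either strand, one of the 2 forms searched of the core letters bound by hypoxia-inducible factors. The other form, GCGTG, is left in lower case.
Slc2a1: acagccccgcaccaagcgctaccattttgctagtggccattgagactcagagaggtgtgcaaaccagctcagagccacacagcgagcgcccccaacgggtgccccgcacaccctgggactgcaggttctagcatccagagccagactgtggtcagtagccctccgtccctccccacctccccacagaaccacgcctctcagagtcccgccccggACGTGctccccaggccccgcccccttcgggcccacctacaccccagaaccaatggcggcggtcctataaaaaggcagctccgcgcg
The letters occurred once, starting 36 bases before the start, in a region that also held CCGCCC on either strand at 2 places. GCGTG on either strand occurred once, starting at base -61. Of all 32851 windows of this length, 19.6% hold ACGTG, 32.4% GCGTG and 35.7% CCGCCC. A match is a description of the letters and not a measured binding site.

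The insulin-responsive carrier Slc2a4 (chromosome 11, 69942539 to 69948188) behaved differently. It stood at 7737, 7182 and 8532 in WT RT, at 9053, 8850 and 8201 in WT Cold and at 10908, 9871 and 11624 in GCN2 KO Cold. WT Cold overlapped WT RT, while every GCN2 KO Cold library was above every other library. The log2 fold change was 0.15 ± 0.08 in WT Cold (limma adjusted p = 0.216) and 0.47 ± 0.09 for GCN2 KO Cold against WT RT (limma adjusted p = 0.00642), or 0.26 with scaling to library totals, still past the test. Set against WT Cold, GCN2 KO Cold gave 0.31 ± 0.09, not past the test (limma adjusted p = 0.176). Within each library the log2 ratio of Slc2a1 to Slc2a4 averaged -4.16 ± 0.29 (SD, n = 3) in WT RT, -3.24 ± 0.12 in WT Cold and -3.86 ± 0.12 in the GCN2 KO Cold group. WT Cold overlapped neither other group (exact permutation test, two-sided, p = 0.1 for each, the smallest that 3 against 3 allows, and 0.164 after adjustment over the 18 ratio tests). The neuronal-type carrier Slc2a3 was low, at 55 to 92 in WT RT, 141 to 203 in WT Cold and 88 to 157 in GCN2 KO Cold. It rose in WT Cold by 1.28 ± 0.24 on the log2 scale (limma adjusted p = 0.00717) and was 0.85 ± 0.29 for GCN2 KO Cold against WT RT, not past the test (limma adjusted p = 0.0513). The same limit as for Slc2a1 applies, since the study displayed transporter genes from these libraries. Taking counts per kilobase of exon, Slc2a4 made up 94.3 ± 1.2% of the 3 carriers in WT RT, 89.7 ± 0.8% in WT Cold and 93.1 ± 0.7% in the GCN2 KO Cold group (SD, n = 3), and Slc2a1 5.3 ± 1.0%, 9.4 ± 0.7% and 6.3 ± 0.5%.

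Hk2, the hexokinase of insulin-sensitive tissues, lies on chromosome 6 from 82725025 to 82774454. It stood at 5528, 7927 and 10931 in WT RT, at 16352, 16088 and 10552 in WT Cold and at 13396, 12839 and 11193 in GCN2 KO Cold. Libraries A and B of WT Cold were the highest of all, but C fell within the range of WT RT. GCN2 KO Cold did not overlap WT RT. The rise was 0.84 ± 0.26 (log2) in WT Cold (limma adjusted p = 0.0444) and 0.67 ± 0.21 in GCN2 KO Cold (limma adjusted p = 0.0417). Both were close to the threshold. The first passed under 9 of the 16 settings tried. It was lost with edgeR (adjusted p = 0.0501), without a mean-variance trend, with scaling to library totals and without WT Cold A, WT Cold B, WT RT A or WT RT B (0.73, 0.75, 0.59 and 0.85 on the log2 scale). Without WT Cold C it was 1.05 (limma adjusted p = 0.0118). The second passed under 7 of 16. It was lost with edgeR (adjusted p = 0.0603), without a trend, with library totals, with all 9 libraries in the fit and without GCN2 KO Cold A, B or C or WT RT A or B (0.61, 0.65, 0.74, 0.42 and 0.68). The difference between the cold groups was -0.18 ± 0.17 (limma adjusted p = 0.686). Hk1, the hexokinase of most cells, stood between 1534 and 1999 in all 9 libraries, and none of its comparisons passed the test. Per exon length, Hk2 made up 84.0 ± 4.3% of Hk1, Hk2 and Hk3 in WT RT, 91.0 ± 1.7% in WT Cold and 91.4 ± 0.9% in the GCN2 KO Cold group. Hk3, a leukocyte hexokinase, accounted for 2.54%, 0.437% and 0.361%. It fell by 1.79 on the log2 scale in WT Cold (SE 0.30, limma adjusted p = 0.00475), beside the lower sum of the leukocyte markers.

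Phosphofructokinase is a tetramer built from liver (Pfkl), muscle (Pfkm) and platelet (Pfkp) subunits. Relative to WT RT, Pfkl fell in WT Cold, while Pfkp rose and Pfkm fell in GCN2 KO Cold. Pfkl, on chromosome 10 from 77986947 to 78010083, was counted at 22325, 27921 and 33423 in WT RT, at 16113, 15660 and 16322 in WT Cold and at 20619, 23848 and 21346 in GCN2 KO Cold. The 3 WT Cold libraries were the lowest of the 9 and close to one another, and GCN2 KO Cold overlapped WT RT. Pfkl fell by 0.78 on the log2 scale in WT Cold (SE 0.14, limma adjusted p = 0.0054). In GCN2 KO Cold it was -0.33 ± 0.14 relative to WT RT (limma adjusted p = 0.11, but -0.48 and 0.0278 without WT RT A, and -0.53 and 0.0117 with scaling to library totals) and 0.45 ± 0.08 relative to WT Cold, without overlap (1.37-fold, limma adjusted p = 0.0699). DESeq2 on the recovered reads passed the latter (adjusted p = 0.000888) and edgeR did not.

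Pfkp stood at 4229, 5951 and 6585 in WT RT, at 6919, 7369 and 6832 in WT Cold and at 7669, 9211 and 8357 in GCN2 KO Cold. Both cold groups lay above WT RT, past the test in GCN2 KO Cold (0.61 ± 0.16, limma adjusted p = 0.0176) and not in WT Cold (0.35 ± 0.15, limma adjusted p = 0.119). Pfkm stood at 3691, 3169 and 3261, at 3297, 3041 and 2274, and at 1894, 2221 and 1302 in the 3 groups. It fell by 0.93 on the log2 scale for GCN2 KO Cold against WT RT (SE 0.18, limma adjusted p = 0.00502), where all 20 skeletal muscle markers were lower without overlap. The log2 ratio of Pfkl to Pfkp within a library was 2.32 ± 0.09 (SD, n = 3) in WT RT, 1.19 ± 0.09 in WT Cold and 1.38 ± 0.04 in the GCN2 KO Cold group. No 2 groups overlapped in this ratio (exact permutation p = 0.1 for each pair, adjusted 0.164). Per exon length, Pfkp made up 7.4 ± 0.7% of the 3 subunits in WT RT, 13.9 ± 0.6% in WT Cold and 14.1 ± 0.6% in the GCN2 KO Cold group. Pfkl made up 74.2 ± 3.6%, 63.5 ± 3.2% and 73.8 ± 1.8%, and Pfkm 18.4 ± 4.2%, 22.6 ± 3.4% and 12.1 ± 2.4%. These shares rest on merged exons of 13401 bases for Pfkp, 6675 for Pfkl and 3340 for Pfkm. Without division by length, Pfkp had more counts than Pfkm in every library. The promoter window of Pfkl (RefSeq, GRCm38.p6, chr10:78009758-78010057, minus strand) is shown because Pfkl fell the most of the members in WT Cold. It holds no ACGTG and thus no capitals, GCGTG once, starting at base -99, and CCGCCC on either strand at 3 places.
Pfkl: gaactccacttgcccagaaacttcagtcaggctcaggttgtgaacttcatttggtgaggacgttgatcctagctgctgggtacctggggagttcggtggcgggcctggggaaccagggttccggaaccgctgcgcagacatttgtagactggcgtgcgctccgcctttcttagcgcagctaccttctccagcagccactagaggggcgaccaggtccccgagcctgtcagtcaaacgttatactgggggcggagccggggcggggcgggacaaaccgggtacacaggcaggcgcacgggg

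**Figure D2:**
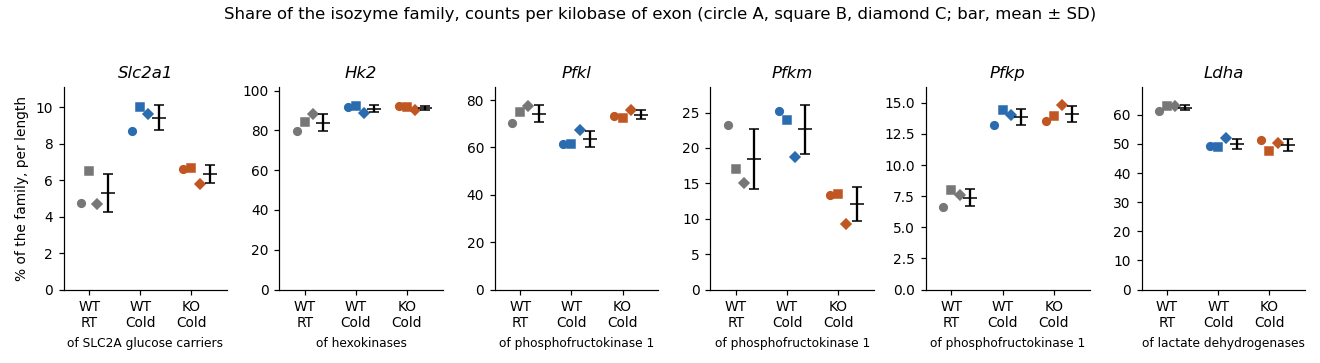
Share of each gene within its isozyme family in percent, from counts per kilobase of exon, in the libraries of WT RT (grey), WT Cold (blue) and GCN2 KO Cold (orange); bars are the mean ± SD and each axis starts at 0. The mean Ldha share is 62.4% in WT RT, 50.1% in WT Cold and 49.6% in the GCN2 KO Cold group, and the Pfkp share is 13.2% or more in every cold library and at most 7.96% in WT RT.

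Pfkfb3 makes and removes fructose 2,6-bisphosphate, the strongest activator of phosphofructokinase, with synthesis prevailing. The gene lies on chromosome 2 from 11471433 to 11554077. It stood at 15419, 13586 and 15179 in WT RT, at 16032, 18640 and 12286 in WT Cold and at 20488, 25083 and 13358 in GCN2 KO Cold. All groups overlapped, since the C library was low in both cold groups. The log2 fold change was 0.07 ± 0.15 in WT Cold (limma adjusted p = 0.766) and 0.37 ± 0.20 in GCN2 KO Cold (limma adjusted p = 0.194), each relative to WT RT. Without GCN2 KO Cold C the latter was 0.62 and passed the test (limma adjusted p = 0.00721). It made up 89.3 ± 0.7% of the 4 Pfkfb genes per exon length in WT RT, 90.0 ± 1.4% in WT Cold and 90.5 ± 2.0% in the GCN2 KO Cold group. Pfkfb1, Pfkfb2 and Pfkfb4 did not pass the test in any comparison.

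Pkm encodes pyruvate kinase, and its gene total does not separate the M1 and M2 splice forms. It lies on chromosome 9 from 59656368 to 59679375 and stood at 57128, 69755 and 75736 in WT RT, at 48226, 44770 and 42610 in WT Cold and at 51858, 52095 and 57942 in GCN2 KO Cold. The WT Cold libraries were the lowest, and the highest GCN2 KO Cold library exceeded the lowest WT RT library. Pkm fell by 0.57 on the log2 scale in WT Cold (SE 0.12, limma adjusted p = 0.0104). It was -0.32 ± 0.12 for GCN2 KO Cold against WT RT (limma adjusted p = 0.0822), which passed with DESeq2 (adjusted p = 0.0335), with edgeR (adjusted p = 0.0438), with scaling to library totals (-0.52, limma adjusted p = 0.00669) and without WT RT A (-0.43, limma adjusted p = 0.0367), and 0.26 ± 0.09 relative to WT Cold (limma adjusted p = 0.242).

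Of the subunits of lactate dehydrogenase, Ldhb rose in both cold groups and Ldha passed the test in neither. LDHA favours the conversion of pyruvate to lactate and LDHB, the heart-type subunit, the reverse. Ldhb, on chromosome 6 from 142490249 to 142507957, stood at 13575, 13737 and 14522 in WT RT, at 20076, 21248 and 19915 in WT Cold and at 23593, 26637 and 27392 in GCN2 KO Cold. The 3 groups did not overlap and rose in that order. The increase was 1.46-fold in WT Cold (log2 fold change 0.55 ± 0.07, limma adjusted p = 0.00159) and 1.85-fold in GCN2 KO Cold (0.89 ± 0.08, limma adjusted p = 0.000304), and it passed the test under all 16 settings tried for each. Between the cold groups it was 0.34 ± 0.08 (limma adjusted p = 0.142), past the test with DESeq2 alone (adjusted p = 0.0421).

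Ldha, on chromosome 7 from 46841475 to 46855627, stood at 45510, 49281 and 51986 in WT RT, at 40980, 42954 and 45589 in WT Cold and at 52193, 50810 and 58202 in GCN2 KO Cold. WT Cold C was level with WT RT A on this scale, and in the table's own scaling WT Cold lay below WT RT without overlap. The log2 fold change was -0.18 ± 0.09 in WT Cold (limma adjusted p = 0.159, but -0.27 and 0.0304 with scaling to library totals) and 0.13 ± 0.10 in GCN2 KO Cold (limma adjusted p = 0.332), and 0.31 ± 0.09 between the cold groups (limma adjusted p = 0.184). Its share of Ldha plus Ldhb per exon length was 61.4, 63.0 and 62.9% in WT RT, 49.2, 48.9 and 52.1% in WT Cold and 51.2, 47.5 and 50.2% in GCN2 KO Cold. The log2 ratio of Ldha to Ldhb differed from WT RT by -0.73 in WT Cold and by -0.75 in the GCN2 KO Cold group, without overlap (exact permutation p = 0.1 for both, adjusted 0.164), and differed by -0.03 between the cold groups (exact permutation p = 0.9). A ratio within a library does not depend on how libraries are scaled. The windows of both genes (RefSeq, GRCm38.p6) are shown because the pair is compared here: that of the more upstream of 2 Ldha starts (chr7:46845554-46845853, plus strand) and that of Ldhb (chr6:142507908-142508207, minus strand).
Ldha: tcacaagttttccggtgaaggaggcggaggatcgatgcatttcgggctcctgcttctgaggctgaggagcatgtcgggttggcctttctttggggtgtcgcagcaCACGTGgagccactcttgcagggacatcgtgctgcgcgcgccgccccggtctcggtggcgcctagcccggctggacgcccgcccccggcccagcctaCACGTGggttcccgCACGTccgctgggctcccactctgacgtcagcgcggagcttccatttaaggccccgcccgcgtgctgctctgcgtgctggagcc
Ldhb: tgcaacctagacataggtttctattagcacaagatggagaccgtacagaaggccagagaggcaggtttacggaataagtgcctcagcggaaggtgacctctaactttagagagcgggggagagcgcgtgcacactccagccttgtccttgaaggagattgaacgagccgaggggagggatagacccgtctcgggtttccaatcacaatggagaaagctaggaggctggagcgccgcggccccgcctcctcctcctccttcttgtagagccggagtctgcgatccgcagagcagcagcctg
ACGTG on either strand fills 3 separate stretches of the Ldha window, 2 of which are CACGTG, and is not in the Ldhb window. GCGTG on either strand is in both, at 2 places in the Ldha window and once, starting at base -126, in that of Ldhb. The Ldha window also holds TGACGTCA, the cyclic AMP response element, starting 12 bases before the start, as do 1.79% of all windows. RefSeq windows were found for 9 of the 10 members, 13 in all, with ACGTG in 7 of them and GCGTG in 7, not the same 7. On either strand, AAGGTCA (oestrogen-related receptors; 4.72% of all windows), GTAAACA (FOXO factors; 3.65%) and TGATGNAA (ATF and C/EBP pairs; 3.97%) are in none of the 13 windows.

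The PDK genes restrain the entry of pyruvate into mitochondrial oxidation. Pdk4, the isoform that rises with fasting and fatty acid use, lies on chromosome 6 from 5483351 to 5496309. It stood at 97393, 74978 and 82645 in WT RT, at 64246, 54539 and 95557 in WT Cold and at 41777, 44188 and 62957 in GCN2 KO Cold. WT Cold A and B lay below WT RT while C lay within its range, and all GCN2 KO Cold libraries lay below WT RT. The WT Cold difference was -0.29 ± 0.21 (limma adjusted p = 0.338), and without WT Cold C it was -0.52 and passed the test (limma adjusted p = 0.029). Pdk4 fell by 0.79 on the log2 scale for GCN2 KO Cold against WT RT (0.577-fold, SE 0.17, limma adjusted p = 0.00902), and the cold groups differed by -0.51 ± 0.23 with overlap (limma adjusted p = 0.358).

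Pdk2, the widely expressed isoform on chromosome 11 from 95026258 to 95041354, stood at 8112, 7428 and 8440 in WT RT, at 6054, 7018 and 7620 in WT Cold and at 5694, 6992 and 5941 in GCN2 KO Cold. GCN2 KO Cold lay below WT RT without overlap, and WT Cold overlapped both. It fell by 0.37 on the log2 scale in GCN2 KO Cold (SE 0.10, limma adjusted p = 0.0193), a call lost without a mean-variance trend and without GCN2 KO Cold A or C or WT RT A or C (-0.31, -0.34, -0.36 and -0.33). With scaling to library totals it was -0.57. In WT Cold it was -0.22 ± 0.10 (limma adjusted p = 0.14), and it passed the test without WT Cold C (-0.30, limma adjusted p = 0.0457) and with scaling to library totals (-0.30, limma adjusted p = 0.0329). Pdk1, a hypoxia-responsive isoform and not a member, changed more than either: it stood at 4041, 3887 and 4815 in WT RT, at 1909, 1634 and 1978 in WT Cold and at 2290, 1953 and 1813 in GCN2 KO Cold. It fell by 1.21 (SE 0.11, limma adjusted p = 0.00049) in WT Cold and by 1.07 (SE 0.11, limma adjusted p = 0.000481) in GCN2 KO Cold on the log2 scale. Per exon length Pdk4 still made up 88.5 ± 1.2% of the 4 kinase transcripts in WT RT, 88.9 ± 2.4% in WT Cold and 85.9 ± 3.1% in the GCN2 KO Cold group.

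**Figure D3:**
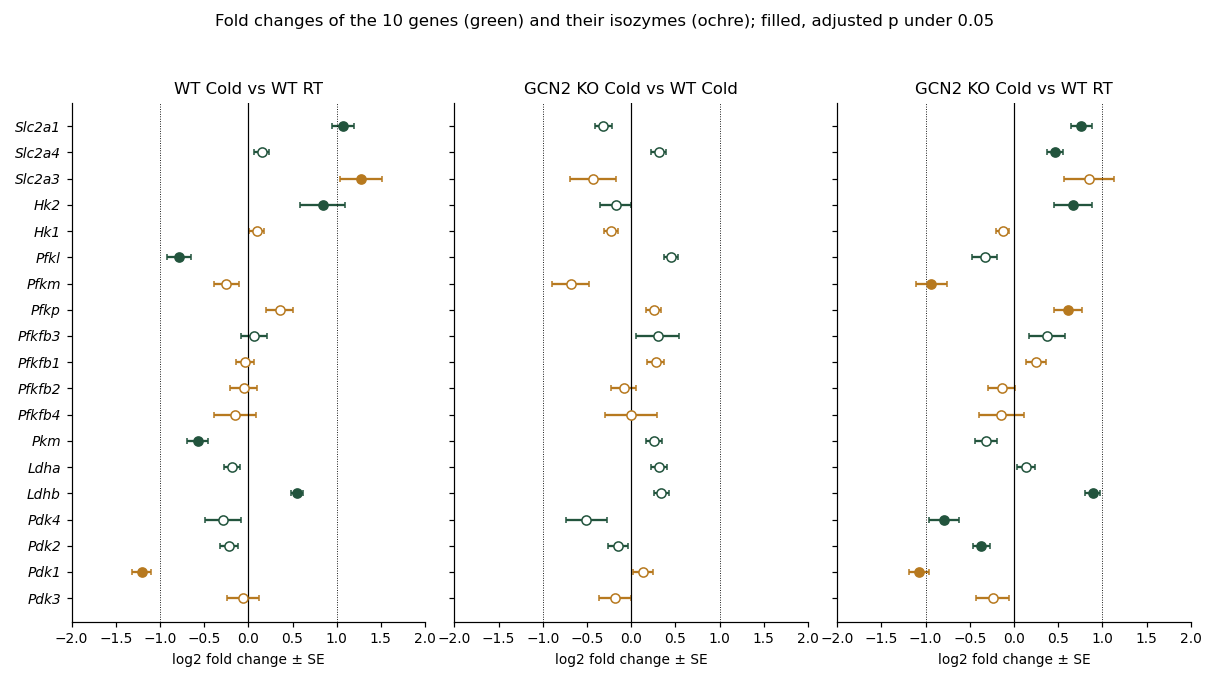
Log2 fold change ± SE (limma) of the 10 genes (green) and their isozymes (ochre) in the 3 comparisons; filled points passed an adjusted p of 0.05 and dotted lines mark an absolute log2 fold change of 1. In WT Cold vs WT RT Slc2a1 is at 1.07 and Pfkl at -0.78, and no point is filled in GCN2 KO Cold vs WT Cold.

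Per kilobase of merged exons, the members kept a wide range of levels, and their order depends on that length. In WT RT the order ran from Pdk4 (24211 ± 3245 normalised counts per kilobase, SD, n = 3) through Ldha (14781 ± 983), Pkm (13505 ± 1900), Ldhb (8882 ± 323), Pfkl (4178 ± 831), Pdk2 (2527 ± 163), Slc2a4 (2248 ± 195), Pfkfb3 (1948 ± 132) and Hk2 (1362 ± 454) to Slc2a1 (125 ± 17). Libraries of these neighbours overlapped for Ldha and Pkm, for Pdk2 and Slc2a4, and for Pfkfb3 and Hk2. In WT Cold, Ldha (13044 ± 699) and Ldhb (13002 ± 464) overlapped, behind Pdk4 (20350 ± 6105) and ahead of Pkm (9039 ± 566), and Slc2a4, Pfkl, Hk2, Pdk2 and Pfkfb3 each overlapped the next in that order. In GCN2 KO Cold, Ldhb (16480 ± 1281), Ldha (16234 ± 1187) and Pdk4 (14139 ± 3303) overlapped in that order. Slc2a1 was higher than 63.0% of genes per length in WT RT, 77.3% in WT Cold and 73.5% in the GCN2 KO Cold group, and every other member exceeded at least 94.6% of genes in each group. Ldha, Pkm and several other glycolytic genes have near-identical pseudogene copies, so reads that map to both may be missing from these totals and the levels of such genes are uncertain.

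The direct comparison of the libraries labelled GCN2 KO Cold with WT Cold asks what the loss of GCN2 changes during cold exposure. None of the 10 members passed the limma test, which 0.405% of all genes passed, or 0.257% with an absolute log2 fold change over 1 as well. With edgeR 0 members passed, against 0.27% of all genes, and with DESeq2 2, Pfkl and Ldhb, against 3.29% of the genes to which it gave an adjusted p. At an unadjusted p under 0.05 there were 6, which were Pfkl, Ldhb, Slc2a4, Ldha, Slc2a1 and Pkm, against 15.3% of all genes. For 5 members, Slc2a4, Pfkl, Pkm, Ldha and Ldhb, every GCN2 KO Cold library was above every WT Cold library, against 11.3% of all genes, and for Slc2a1 every library was below, against 10.7%. The estimates of these 5 lay between 0.26 and 0.45, with a median over the 10 members of 0.28 against 0.00 over all genes. With libraries scaled to their totals, which shifts the median of all genes to -0.12, no member passed either. The estimates of these 5 then lay between 0.14 (Pkm) and 0.33 (Pfkl). Overlap of the groups was counted under the authors' size factors only. The brown adipocyte marker sum was higher in GCN2 KO Cold than in WT Cold without overlap, and Ucp1 and Fabp4 contribute most to it. Of its 12 markers, 5 were higher without overlap, against 11.3% of all genes, and 0 passed the test. The sums of the skeletal muscle, preadipocyte and fibroblast, and nerve markers were lower without overlap.

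Set against WT RT, GCN2 KO Cold had 4 members higher and 2 lower past the test, against 16.4% and 17.8% of all genes. Slc2a1, Slc2a4, Hk2 and Ldhb rose and Pdk4 and Pdk2 fell. None also exceeded an absolute log2 fold change of 1 (10.6% of all genes did), and the groups did not overlap for 6 of 10 members (49.2% of all genes). Both comparisons with WT RT share the WT RT libraries, so their calls are not independent. Scaling to library totals shifts the median of all genes to -0.08 in WT Cold and to -0.19 for GCN2 KO Cold against WT RT. With it, 2 members were higher and 4 lower in WT Cold, against 9.41% and 17.4% of all genes. In GCN2 KO Cold 3 were higher and 4 lower, against 8.97% and 29.1%.

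The wider pathway was read from 11 lists holding 115 genes, of which 101 of the 105 that are not members were tested. The lists were chosen with earlier results of these data known, so their counts against all genes describe the lists and are not independent support. In WT Cold relative to WT RT 7 were higher and 29 lower past the test (median log2 fold change -0.18), where 13.6% and 14.1% of all genes were called and their median was 0.00. For GCN2 KO Cold against WT RT 16 were higher and 29 lower (median -0.13), where 16.4% and 17.8% of all genes were called and their median was 0.01. With scaling to library totals the splits were 6 and 33, and 7 and 47, against 9.41% and 17.4%, and 8.97% and 29.1%, of all genes. Between the cold groups none passed limma or edgeR. With DESeq2 9 passed, against 3.29% of the genes to which it gave an adjusted p, and 29 had an unadjusted p under 0.05, against 15.3% of all genes. The same shares of all genes apply to the counts of single lists. The plot of calls by list gives the counts for 10 of the lists.

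**Figure D4:**
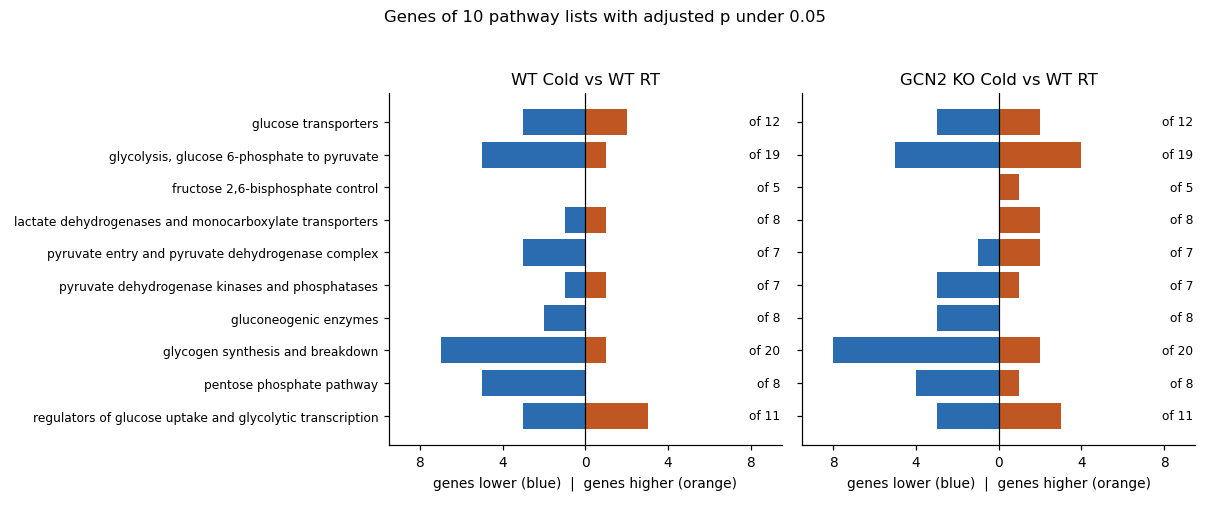
Number of genes in 10 of the 11 pathway lists, members included, that were lower (blue, to the left) or higher (orange, to the right) at a limma adjusted p under 0.05; the number tested stands at the right. In WT Cold vs WT RT the pentose phosphate pathway has 5 of 8 genes lower and none higher, and glycogen synthesis and breakdown 7 of 20 lower and 1 higher.

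Among the 12 glucose transporters tested, 2 rose and 3 fell in WT Cold. Slc2a5, a fructose carrier, fell from 985, 1085 and 1489 normalised counts in WT RT to 94, 76 and 117 in WT Cold (log2 fold change -3.62 ± 0.21, limma adjusted p = 8.33e-05), and stood at 139, 108 and 210 in GCN2 KO Cold (-2.98 ± 0.25 against WT RT, limma adjusted p = 0.000184). Slc2a12 (-0.71) and Slc2a8 (-0.46) fell as well in WT Cold. Every cold library was below every WT RT library for Slc2a5.

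Of the 19 genes from glucose 6-phosphate to pyruvate, 1 rose and 5 fell in WT Cold, with a median of 0.02. Eno1, enolase, fell by 0.84 on the log2 scale (SE 0.11, limma adjusted p = 0.00176) and Gpi1, glucose 6-phosphate isomerase, by 0.65 (SE 0.12, limma adjusted p = 0.00744), while Pgk1, phosphoglycerate kinase, rose by 0.30 (SE 0.09, limma adjusted p = 0.045). For GCN2 KO Cold against WT RT, 4 rose, among them Tpi1, triose phosphate isomerase (0.56), Bpgm (0.61) and Pfkp, and 5 fell. Bpgm, bisphosphoglycerate mutase, is a red blood cell enzyme, and all 7 red blood cell markers were higher past the test in this comparison. It was highest in WT Cold B, at 1853 normalised counts, where the red blood cell marker sum was also highest, at 65736, and the part of these cells was not tested. The largest falls were in Pgam2 (-1.77) and Eno3 (-1.004), the muscle forms of phosphoglycerate mutase and enolase, and in Pfkm, and the glycogen phosphorylase of muscle, Pygm (-1.73), fell there too. In that comparison 18 of the 20 skeletal muscle markers also fell past the test. Neither of the muscle enzymes Pgam2 and Eno3 passed in WT Cold (0.02 ± 0.27 and 0.28 ± 0.21).

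The pentose phosphate pathway branches from glucose 6-phosphate to make NADPH and ribose. Of its 8 genes, 5 fell in WT Cold, against 14.1% of all genes, and none rose (median -0.53). Tkt, transketolase, stood at 74311, 88153 and 104192 in WT RT, at 28998, 20877 and 23708 in WT Cold and at 33427, 28594 and 29952 in GCN2 KO Cold. It fell by 1.86 on the log2 scale in WT Cold (SE 0.16, limma adjusted p = 0.000385), Pgd by 1.69 (SE 0.16, limma adjusted p = 0.00049) and Taldo1 by 0.97 (SE 0.10, limma adjusted p = 0.000635). In GCN2 KO Cold 4 fell, with Tkt at -1.53 and Pgd at -1.17, and 1, Pgls, rose (0.48).

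Of the 20 glycogen genes, 7 were lower and 1 higher in WT Cold and 8 were lower and 2 higher in GCN2 KO Cold, where 14.1% and 17.8% of all genes were lower. Pygl (-1.17 ± 0.11) and Pygb (-1.15 ± 0.13), the liver and brain forms of glycogen phosphorylase, fell in WT Cold and Gsk3a rose (0.60 ± 0.09). The largest falls of the list for GCN2 KO Cold against WT RT were in Pygm (-1.73 ± 0.39) and Phkg1 (-1.67 ± 0.28), the muscle forms of glycogen phosphorylase and of the catalytic subunit of phosphorylase kinase. All 20 skeletal muscle markers were lower without overlap there, and their part was not tested. Pygb also fell (-1.04 ± 0.16), and Gsk3a (0.66 ± 0.08) and Gys2, the liver glycogen synthase (0.59 ± 0.15, limma adjusted p = 0.0196), rose. Of the 7 genes of pyruvate entry and the pyruvate dehydrogenase complex, 3 fell in WT Cold, Pdhb (-0.43), Mpc1 (-0.43) and Pdha1 (-0.39), and none rose. Against WT RT, in the GCN2 KO Cold group, Pdhx (0.47) and Dld (0.29) rose and Pdha1 (-0.28) fell. All 7 stood higher in GCN2 KO Cold than in WT Cold without overlap, against 11.3% of all genes, with estimates between 0.11 and 0.40. This count holds for the authors' size factors. Scaling to library totals shifts the median of all genes to -0.12, and overlap was not counted under it. None passed limma or edgeR, 1 passed DESeq2 (3.29% of genes), and 6 had an unadjusted p under 0.05 (15.3% of genes).

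Of 8 lactate dehydrogenases and monocarboxylate transporters, Ldhb rose and Slc16a7 fell (-0.57) in WT Cold, and Ldhb and Ldhd rose (0.37) in GCN2 KO Cold. Among 7 PDK and phosphatase genes, the phosphatase Pdp2 rose in both cold groups relative to WT RT (0.45 and 0.42). Among 8 gluconeogenic genes, 2 fell in WT Cold, Slc37a4 (-0.88) and Pcx (-0.45), and 3 in GCN2 KO Cold, with Pck2 (-0.57) the third. Tigar was the single gene of 5 in the fructose 2,6-bisphosphate list to pass there (0.39). Of 11 regulators, 3 rose and 3 fell in each cold group. Foxo1, a transcription factor restrained by insulin, rose by 1.23 ± 0.15 in WT Cold and 1.13 ± 0.12 in the GCN2 KO Cold group, Esrra by 0.69 and 0.93, and Hif1a by 0.34 and 0.38. Mlxipl, which encodes the glucose-sensing factor ChREBP, fell by 1.06 and 1.08 on the log2 scale, and Ppara by 0.51 and 0.88. Tbc1d4, which restrains GLUT4 movement, fell in WT Cold (-0.56), and Txnip, an inhibitor of glucose uptake, in GCN2 KO Cold (-0.83).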

How the data were processed

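RNA of brown adipose tissue was sequenced from 9 libraries. Per the labels and the study's methods, the authors made poly(A) libraries, trimmed reads (Trimmomatic 0.36), aligned them (STAR 2.5.2b; GRCm39 in the submitters' processing notes), counted unique exon reads (featureCounts, Subread 1.5.2) and compared groups with DESeq2. The strand setting is not given in the sources used here, so reads of a gene and an overlapping antisense gene cannot be told apart. Each deposited value is a signal, reads over a DESeq2 size factor that was estimated separately in each of 3 tables. The tables also hold the authors' fold changes and p-values, which were not used. Whole reads were recovered for 100% of values (tolerance 0.01 reads). Library codes were tied to groups by the tables in which they occur, 0 columns belonged to other samples, and the labels number the samples as biological replicates.

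Main test: limma 3.58.1 (R 4.3.3) on log2(value + 1), mean-variance trend, the 6 libraries of a table, Benjamini-Hochberg over its 16679, 16312 or 16560 genes. DESeq2 1.42.0 and edgeR 4.0.16 (quasi-likelihood) on the recovered reads were alternatives, with other pseudocounts (0.5, 10), a mean value of at least 50, other scalings, no trend, all 9 libraries, and each library left out. Scripts were tested on simulated data. Levels use size factors over all 9 libraries. Exon lengths, merged over all transcripts of a gene, and positions are from GENCODE M21 (GRCm38, another build than the files), matched by gene ID for 16905 of 16937 genes. Members and lists were chosen with earlier results of these data known. Named genes are the members, their isozymes, Eif2ak4 and up to 3 genes per list and direction with the largest change past the test and a mean value of at least 50. Pygm was named by this rule in GCN2 KO Cold vs WT RT. The named result of 1 list gene is not reported here.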

Additional observations from a re-analysis of the deposited data

How the results depend on the processing

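Of the 10 members, 5 passed the test in WT Cold vs WT RT, 0 in GCN2 KO Cold vs WT Cold and 6 in GCN2 KO Cold vs WT RT. An absolute log2 fold change over 1 in addition left 1, 0 and 0. DESeq2 gave 2 instead of 0 in GCN2 KO Cold vs WT Cold, where it called 526 of all genes against 66 with limma and 44 with edgeR, and leaving out 1 library at a time gave 4 to 7, 0 to 0 and 4 to 6. Scaling to library totals, added after seeing the data, turned the log2 fold change of Pfkfb3 in WT Cold vs WT RT to -0.018 and that of Ldha in GCN2 KO Cold vs WT RT to -0.069. Pfkfb3 was also reversed without WT Cold B (-0.069; range -0.069 to 0.23 over the libraries left out). None of these passed the test. The log2 ratio differences on leaving out 1 library changed sign for Pdk4 over Pdk2 in WT Cold vs WT RT (-0.22 to 0.12; 0.12 without WT Cold B and 0.02 without WT RT A), and for Hk2 over Hk1 (-0.11 to 0.15; -0.11 without WT Cold C and -0.0041 without GCN2 KO Cold B) and Ldha over Ldhb (-0.070 to 0.036; 0.032 without WT Cold C and 0.036 without GCN2 KO Cold B) in GCN2 KO Cold vs WT Cold. The cause was not tested. Slc2a1, Ldhb, Pfkl and Pkm in WT Cold vs WT RT, and Slc2a1, Slc2a4, Ldhb and Pdk4 in GCN2 KO Cold vs WT RT, passed under all 16 settings. No paired analysis was possible because the columns carry no replicate numbers, so the replicate block was not run. With 3 libraries a group, no exact permutation p can fall below 0.1.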
